A study of Mus musculus with 2 samples.

Results

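The genes described here are 5 connexins (Gja1, Gjb6, Gjb2, Gjc3 and Gjd2), both brain pannexins (Panx1 and Panx2) and the water channel gene Aqp4. These 8 members were chosen by gene symbol from the 55536 annotated genes, and all 8 were present in both libraries. The libraries came from total RNA of hippocampus of B6CASTF1/J mice, a hybrid of C57BL/6J and CAST/EiJ parents, at 10 days of age. The tissue field of the labels reads "layer of hippocampus" without naming a layer. There was 1 group with 2 biological replicates and 300 ng of starting RNA each, and the labels name no treatment or engineered allele. Each label counts 3 males under its own running numbers, and whether a library is a pool of 3 animals is not spelled out. Both libraries carry the label male, but in replicate 2 the sex-linked genes did not match it.

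Connexins assemble into hexameric hemichannels in the cell membrane, and hemichannels of neighbouring cells dock into gap junctions through which ions and small metabolites pass. In the brain, astrocytes use Gja1 and Gjb6 for most of their coupling, oligodendrocytes have connexins of their own, and Gjd2 forms the electrical synapses of neurons. Pannexins form large membrane channels that do not usually dock and are best known for releasing ATP. Aqp4 is the main water channel of the brain and lies at high density in the astrocyte endfeet that wrap blood vessels.

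Docking rests on 3 cysteines in each of the extracellular loops, which is the part of the coding sequence that the member connexins share by design. The stretch from the first to the third cysteine codon of each loop is shown for the 5 connexins, so that their differences in level can be read beside what they have in common. It was 36 bases long in all 10 cases. The coding strand is given 5′ to 3′ in mm10, with the cysteine codons in capitals. The first loop reads as follows for Gja1 (chr10:56387706-56387741, plus strand), Gjb6 (chr14:57124611-57124646, minus strand), Gjb2 (chr14:57100558-57100593, minus strand), Gjc3 (chr5:137957797-137957832, minus strand) and Gjd2 (chr2:114011797-114011832, minus strand).
Gja1, first loop: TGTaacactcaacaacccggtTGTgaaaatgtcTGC
Gjb6, first loop: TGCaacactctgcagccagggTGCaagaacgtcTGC
Gjb2, first loop: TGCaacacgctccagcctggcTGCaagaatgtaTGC
Gjc3, first loop: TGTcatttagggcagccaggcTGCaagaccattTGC
Gjd2, first loop: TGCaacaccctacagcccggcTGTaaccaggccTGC

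The second loop keeps its 3 cysteines with another spacing, the same in all 5 genes. Its positions are chr10:56388105-56388140 for Gja1, chr14:57124263-57124298 for Gjb6, chr14:57100210-57100245 for Gjb2, chr5:137957446-137957481 for Gjc3 and chr2:114011269-114011304 for Gjd2, on the strands given for the first loop.
Gja1, second loop: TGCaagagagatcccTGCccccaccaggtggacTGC
Gjb6, second loop: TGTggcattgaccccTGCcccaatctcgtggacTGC
Gjb2, second loop: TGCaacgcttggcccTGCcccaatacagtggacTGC
Gjc3, second loop: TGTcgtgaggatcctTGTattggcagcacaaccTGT
Gjd2, second loop: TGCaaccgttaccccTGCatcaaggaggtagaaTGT

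Over the whole coding sequence the closest pair was Gjb6 and Gjb2, with 75.7% identity over 678 aligned bases, while the other 9 pairs had 57.0 to 67.9%. Even in the closest pair the longest run of identical bases was 20 bases, at chr14:57124570-57124589 in Gjb6 and chr14:57100517-57100536 in Gjb2, both on the minus strand.
Longest run shared by Gjb6 and Gjb2: tctcacatccggctctgggc
No transcript of Gjb6, Gjb2, Gjd2, Panx1, Panx2 or Aqp4 matched a transcript of another gene in the same orientation at 90% identity over at least 100 bases. Matches in the opposite orientation were not searched. Only 3 transcripts of the members had such a match in the same orientation. They were Gjc3-201 with 972 other genes, all within its bases 2586 to 3267, and the minor transcripts Gja1-202 and Gja1-208 with 164 and 146. Reads from the matching stretch of Gjc3-201 are therefore less certain than those of its coding sequence.

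Replicate 1 held 32035705 expected counts and replicate 2 held 29747193, of which each member had 152 to 8125. Levels are given in TPM (a count per length, scaled to a fixed sum in each library), which can be set side by side between genes. The count of Xist, the RNA of the inactive X chromosome, was 25 in replicate 1 and 30841 in replicate 2, and that of the Y-linked gene Ddx3y was 2164 in replicate 1 and 0 in replicate 2, which is labelled male. All 12 astrocyte markers and all 12 neuron markers were detected at 1 TPM or more in both libraries, as were 9 of 12 markers of myelinating oligodendrocytes. With 1 group no comparison between conditions exists, and every test below compares the reads of these 2 libraries. By Xist and Ddx3y, replicate 1 had a male pattern and replicate 2 a female one. A difference between the libraries therefore cannot be told apart from one of sex. In bulk tissue, fewer cells of a type and less RNA per cell cannot be told apart.

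The members spanned a wide range of levels, with the astrocyte genes Gja1 and Aqp4 at the top and the connexins Gjb2 and Gjc3 at the bottom. Gja1, the gene of Cx43 and the most abundant astrocyte connexin (chromosome 10, 56377330 to 56402513, plus strand, mm10), had 126 TPM in replicate 1 and 112 TPM in replicate 2. That placed it above 94.7% of the 13062 protein-coding genes detected at 1 TPM or more, whose median was 15.7 TPM. Aqp4 (chromosome 18, 15389496 to 15410982, minus strand) had 90.8 and 102 TPM, a mean of 96.3 ± 7.72 TPM (SD, n = 2), and stood above 92.8% of those genes. The ranges of Gja1 and Aqp4 did not overlap in these gene levels, but they did in the levels derived from the FASTQ file, at 187 and 166 TPM for Gja1 and 153 and 172 TPM for Aqp4. Their order was thus not settled by the 2 libraries.

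Both pannexins followed. Panx2, a pannexin found mostly on membranes inside neurons (chromosome 15, 89059734 to 89073567, plus strand), had 53.4 and 53.9 TPM in replicates 1 and 2. Panx1, the ATP release channel (chromosome 9, 15002128 to 15045478, minus strand), had 30.8 and 24.8 TPM. The log2 ratio of Panx2 over Panx1 was 0.95 ± 0.23 (SD, n = 2) in these levels. It was 0.27 ± 0.01 by the FASTQ-based levels and 1.61 ± 0.05 when only transcripts with a complete coding sequence were summed, so Panx2 was higher in each case while the size of the gap was not fixed. The third pannexin, Panx3, had 1 count in replicate 1 and 0 counts in replicate 2.

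Of the remaining connexins, the other main astrocyte connexin Gjb6, the gene of Cx30 (chromosome 14, 57123303 to 57133611, minus strand), had 20.0 TPM in replicate 1 and 11.2 TPM in replicate 2. Gjd2, the neuronal connexin Cx36 (chromosome 2, 114009601 to 114013619, minus strand), had 8.94 and 8.31 TPM. Gjb2, the gene of Cx26 and known in brain from astrocytes and meningeal cells (chromosome 14, 57098600 to 57104702, minus strand), had 3.36 and 3.27 TPM. Gjc3, the gene of Cx29 in myelinating glia of rodents (chromosome 5, 137953461 to 137963098, minus strand), had 2.55 and 3.45 TPM. Gjb2 and Gjc3 overlapped and cannot be ordered, while every other pair of neighbours in the order had separate ranges. By the FASTQ-based levels Gjb6 (25.05 and 12.9 TPM) also overlapped with Gjd2 (12.9 and 11.7 TPM). Gjb6 stood at the middle of the detected protein-coding genes, above 49.8% of them, whereas Gjb2 and Gjc3 stood above 13.2% and 11.6%.

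**Figure D1:**
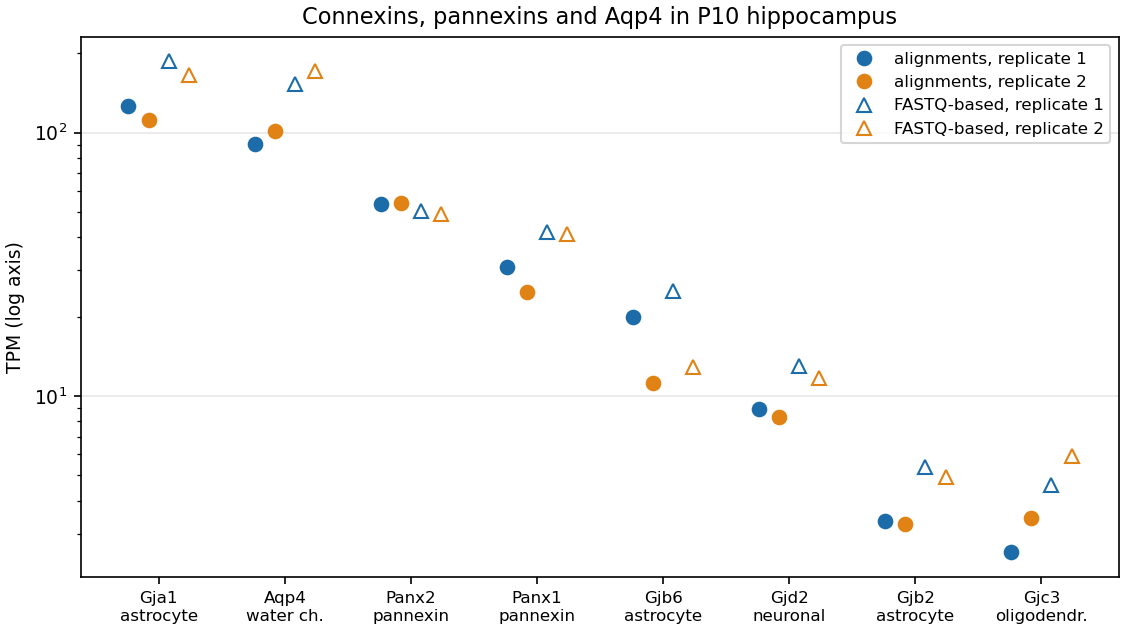
Level of each gene in TPM on a log axis, ordered by mean, with filled circles for gene levels from alignments, open triangles for FASTQ-based levels, blue for replicate 1 and orange for replicate 2. Gja1 and Aqp4 lie near 100 TPM in both libraries, and the replicates of Gjb6 (20.0 and 11.2 TPM from alignments) lie further apart than those of any other gene shown.

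Set against each other by cell class, the astrocyte connexins held most of the RNA of the 5 member connexins. These 5 held 90.4% of the TPM of all 20 annotated connexins in replicate 1 and 89.0% in replicate 2. Gja1, Gjb6 and Gjb2 together made up 92.9% of the TPM of the 5 member connexins in replicate 1 and 91.5% in replicate 2. The neuronal connexin Gjd2 held 5.55% and 6.01%, and the oligodendrocyte connexin Gjc3 held 1.58% and 2.50%. As means these shares were 92.2% ± 0.972 for astrocytes, 5.78% ± 0.326 for neurons and 2.04% ± 0.646 for oligodendrocytes (SD, n = 2). The 3 ranges did not overlap, and the FASTQ-based shares were 91.9%, 5.66% and 2.45%. These are shares of RNA in the tissue and say nothing of channels per cell.

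Within the astrocyte class Gja1 dominated. Gja1 alone held 70.8% of the TPM of all 20 connexins of the annotation in replicate 1 and 72.1% in replicate 2. The log2 ratio of Gja1 over Gjb6 was 2.65 in replicate 1 and 3.31 in replicate 2, and that of Gja1 over Gjb2 was 5.19 and 5.06. Gja1 over Gjc3 was 5.57 and 4.98, and Gja1 over Gjd2 was 3.80 and 3.74. The ratio to Gjd2 therefore moved least between the libraries, at 3.77 ± 0.05, and the ratio to Gjb6 moved most, at 2.98 ± 0.47 (SD, n = 2). Gjc3 over Gjd2 was negative in both libraries, at -1.77 and -1.24.

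The connexins outside this set were low, although Gjc1 and Gja4 lay above the member connexins Gjb2 and Gjc3 in both libraries. Gjc1, a connexin of vascular and other cells also reported in neurons, had 7.88 and 6.90 TPM in replicates 1 and 2, and the vascular connexin Gja4 had 4.80 and 4.66 TPM. The endothelial Gja5 (0.86 and 1.55 TPM) and Gjd3 (1.06 and 0.81 TPM) reached 1 TPM in a single library. Gjb1, a connexin of oligodendrocytes and Schwann cells, had 14 and 15 counts.

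Aqp4 was likewise the most abundant of the aquaporins. Aqp11, an aquaporin of intracellular membranes, had 17.9 and 20.2 TPM in replicates 1 and 2. Aqp9, which also carries glycerol and other solutes, had 1.65 and 1.27 TPM. Aqp1, the water channel of the choroid plexus, had 0.22 TPM (12 counts) in replicate 1 and 1.98 TPM (101 counts) in replicate 2. The other 8 aquaporins stayed below 1 TPM in both libraries.

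Between the libraries, 3 of the 8 members differed past an adjusted p of 0.05, Gjb6 and Gja1 higher and Aqp4 lower in replicate 1. All 8 had a mean count of at least 100 and entered the two-sided exact binomial test of counts, adjusted over all 12879 genes tested by the Benjamini-Hochberg method. At that threshold 11.8% of all genes tested passed (5.5% higher and 6.28% lower in replicate 1), so a count of 3 among 8 is read against a background in which small differences often pass. None of the 8 was also at least 2-fold apart, a rule met by 0.303% of genes (0.155% higher and 0.148% lower in replicate 1). In the median over the members the log2 ratio of replicate 1 over replicate 2 was 0.05, and over all genes it was -0.00, with 95% of genes between -0.31 and 0.31.

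Gjb6 was the member that stood outside that range. It had 692 counts in replicate 1 and 354 in replicate 2, a log2 ratio of 0.85 with an exact 95% counting interval of 0.67 to 1.04, or 1.81-fold higher in replicate 1 (1.59 to 2.06). The adjusted p was 2.12e-18 in the exact binomial test with Benjamini-Hochberg adjustment. Only 27 of the 12879 genes tested, 0.21%, were as far higher in replicate 1. Among 2925 genes within 1.5-fold of its count, 8 were as far higher in replicate 1, and 95% of the 2925 lay between -0.29 and 0.30. By the FASTQ-based counts, 704 and 354, the log2 ratio was 0.88.

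The other astrocyte genes differed by much less. Gja1 had 8125 counts in replicate 1 and 6707 in replicate 2, a log2 ratio of 0.16 (0.12 to 0.21, exact interval; exact binomial adjusted p = 3.59e-10). Aqp4 had 6953 and 7135 counts, a log2 ratio of -0.15 (-0.20 to -0.10; exact binomial adjusted p = 3.58e-08). Gja1 and Aqp4 thus passed in opposite directions, and both lay within the range that held 95% of all genes. Gjb2 lies on the same strand of chromosome 14, 18600 bases from Gjb6, with 1 annotated gene between them, Gm4491, which had 6 and 2 counts. Gjb2 had 168 and 152 counts and a log2 ratio of 0.03 (-0.29 to 0.36), an interval that does not reach that of Gjb6.

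The neuronal and oligodendrocyte connexins and the pannexins did not pass. Gjd2 had 539 and 465 counts in replicates 1 and 2, a log2 ratio of 0.10 (-0.08 to 0.28; exact binomial adjusted p = 0.592). Gjc3 had 201 and 222 counts and a log2 ratio of -0.26 (-0.54 to 0.03; exact binomial adjusted p = 0.274), so that a difference of up to 0.54 in favour of replicate 2 was within counting error. Panx1 had 1664 and 1462 counts, at a log2 ratio of 0.07, and Panx2 had 2273 and 2129 counts, at -0.02. The intervals of both pannexins lay within 0.18 of 0.

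**Figure D2:**
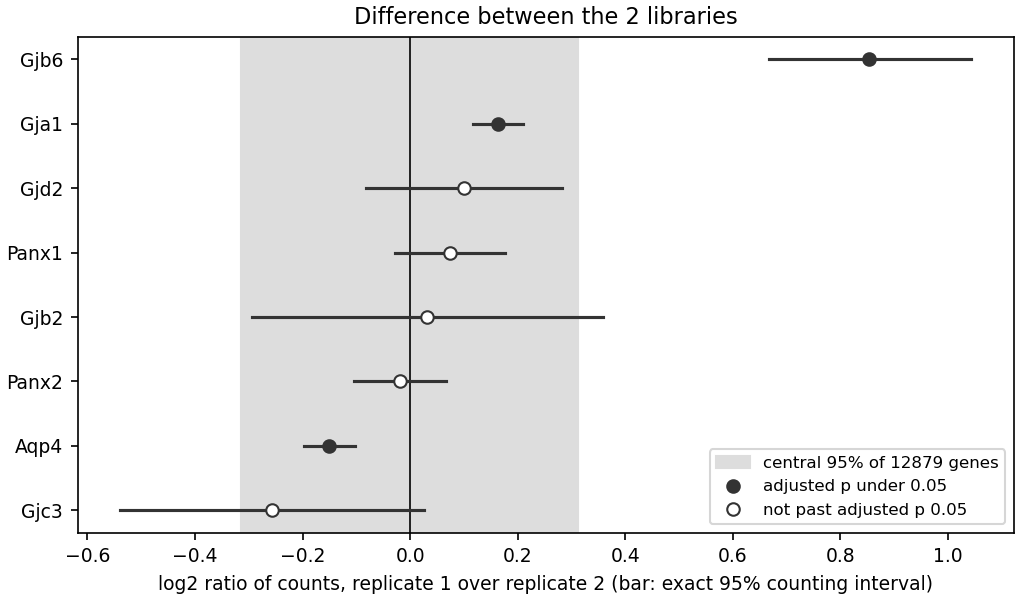
Log2 ratio of counts of replicate 1 over replicate 2 for each gene, with exact 95% counting intervals, filled where the adjusted p of the exact binomial test was under 0.05; the grey band holds the central 95% of all 12879 genes tested. Gjb6 at 0.85 lies outside the band, and the other 7 genes lie inside it.

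Markers of several cell types also moved between the libraries. Of the 12 astrocyte markers, 2 passed as higher and 5 as lower in replicate 1. Their median log2 ratio was -0.04, and their summed level was 2073 TPM in replicate 1 and 2083 TPM in replicate 2. The log2 ratios of the 12 ran from -0.27 to 0.32, with Fgfr3, a growth factor receptor gene (0.32), and Glul, the glutamine synthetase gene (0.25), higher in replicate 1. The part of astrocyte number or state in the Gjb6 value was not tested. Beside Gjb6, 6 of the 10 tested markers of leptomeninges and fibroblasts were higher in replicate 1 and none lower, with a median of 0.28. Their summed level was 563 TPM in replicate 1 and 275 TPM in replicate 2, all 12 of the list were detected, and Ptgds, a prostaglandin synthase of the meninges, had 333 and 85.1 TPM of it. Without Ptgds the other 11 genes summed to 230.2 TPM in replicate 1 and 190.3 TPM in replicate 2. Red blood cell genes moved the same way, with 5 of 5 tested higher in replicate 1 and 5 of 7 detected, and sums of 958 and 567 TPM. The part of these cells in the Gjb6 value was not tested, and a part of sex cannot be told apart with these libraries.

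Markers of myelinating oligodendrocytes moved the other way. All 8 that were tested were lower in replicate 1, at a median of -0.64 on the log2 scale and summed levels of 217 TPM in replicate 1 and 364 TPM in replicate 2. Mbp, a main myelin protein gene, had 89.2 and 161 TPM, and Mobp, another myelin protein gene, had 7.60 and 21.2 TPM. Gjc3 (2.55 and 3.45 TPM) lay in the same direction and did not pass. Among 9 precursor markers, 3 were higher and 1 was lower in replicate 1. The choroid plexus list, which holds Aqp1, had summed levels of 15.6 and 359 TPM, nearly all from Ttr, the transthyretin gene, at 8.02 and 340.1 TPM. Of the 4 genes of this list that were tested, Ttr and Sostdc1 (2.08 and 4.66 TPM) were lower in replicate 1, and 2 did not pass. Aqp1 itself had 12 counts in replicate 1 and 101 in replicate 2. The part of choroid plexus in the Aqp4 value was not tested.

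The remaining lists moved less. Neuron markers had 2 higher and 5 lower of 12 tested in replicate 1, interneuron markers 2 higher of 9, microglia markers 3 lower of 8, and endothelial markers 2 lower of 8. None of 8 pericyte and smooth muscle markers and neither of the 2 ependymal markers tested passed. The median log2 ratios of these lists lay between -0.22 and 0.05.

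**Figure D3:**
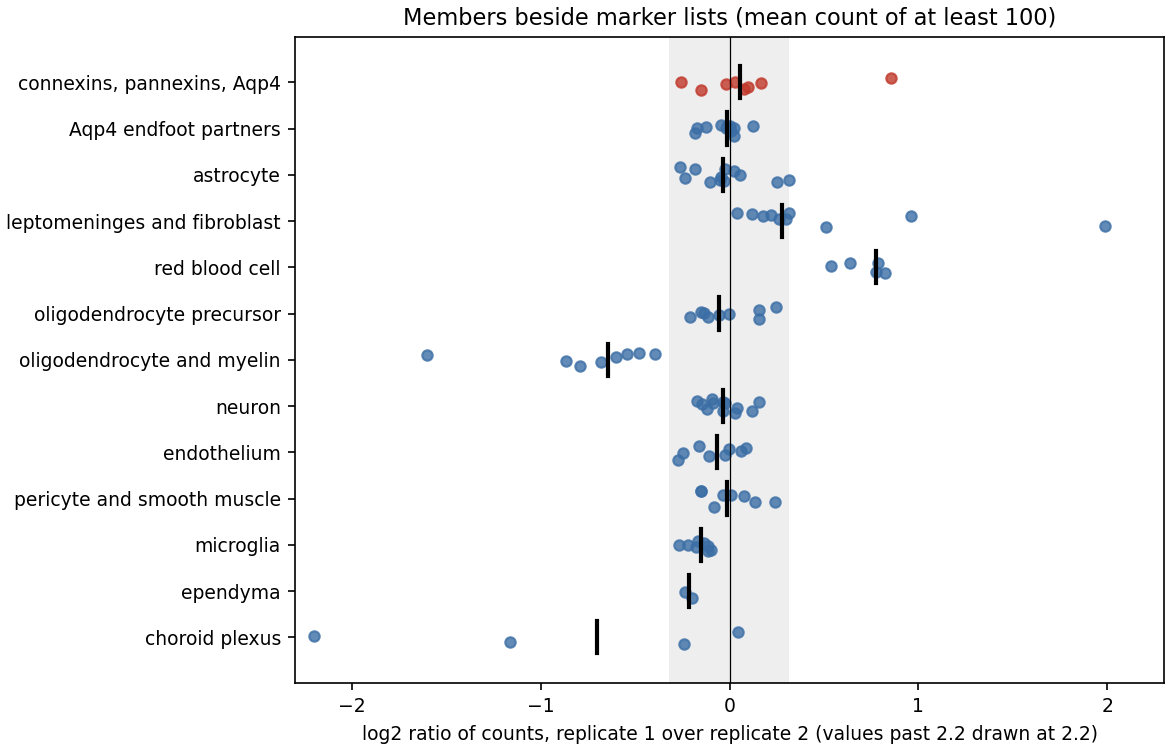
Log2 ratio of counts of replicate 1 over replicate 2 for the connexins, pannexins and Aqp4 (red) and for marker lists (blue), 1 point a gene, with the list's median as a black bar and the central 95% of all genes in grey. Gjb6 lies at 0.85, the red blood cell genes have a median of 0.77, and the myelin list has a median of -0.64.

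The genes of proteins that hold Aqp4 at the endfoot, or share that site, were nearly level in RNA between the libraries. Of 12 such genes 11 were detected and tested, 2 were lower in replicate 1 and none higher, and the median log2 ratio was -0.02. Kcnj10, the potassium channel that lies beside Aqp4, had 32.9 and 36.9 TPM in replicates 1 and 2 and a log2 ratio of -0.17, close to the -0.15 of Aqp4. Gpr37l1, an astrocyte receptor, had 53.9 and 61.0 TPM, at -0.19. The basement membrane gene Agrn (115 and 113 TPM), the astrocyte membrane gene Mlc1 (61.8 and 62.2 TPM) and the dystroglycan gene Dag1 (60.9 and 60.0 TPM) did not pass.

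Genes for gap junction scaffolds and adhesion showed no difference that passed in 8 tested. Tjp1, the scaffold that binds the tail of Cx43, had 50.8 and 52.4 TPM in replicates 1 and 2, and Ctnnb1, the beta-catenin gene, had 359 and 383 TPM. Of 11 genes for the handling of extracellular ATP and adenosine, the ligands that pannexin release feeds, 10 were tested and 1 passed. That was P2ry12, the ADP receptor of microglia, at 24.6 and 27.6 TPM and a log2 ratio of -0.22. The adenosine receptor gene Adora1 (75.9 and 81.6 TPM) and the adenosine kinase gene Adk (31.6 and 27.6 TPM) did not pass.

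The 8 members have 34 annotated transcripts, of which 17 have a complete coding sequence. Transcript levels were deposited in both forms, from alignments and from the FASTQ file, and shares of each gene's TPM are given by both routes because they divide the same reads differently. Aqp4 has 11 transcripts in 2 main coding forms, which differ in where translation starts. Aqp4-201 starts in its own first exon and codes for 323 amino acids, the long form known as M1. Another 7 start at a later codon within the exon all of these share and code for 301, the form known as M23, which is the one that packs into orthogonal arrays in the membrane.

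Aqp4-201 held the larger part of Aqp4 RNA by every measure, but its share depended on the measure. From alignments it held 63.5% of Aqp4 TPM in replicate 1 and 62.3% in replicate 2, and from the FASTQ file 56.3% and 54.2%. The transcripts of the 301 codon form held 35.5% and 35.9% from alignments and 42.6% and 44.1% from the FASTQ file. As means, the short form had 35.7% ± 0.298 by alignments and 43.3% ± 1.02 by FASTQ (SD, n = 2), so the routes differed by more than the libraries did. Counted in reads rather than per length, Aqp4-201 had 88.9% ± 0.324 of the gene's expected counts. Of its 5054 bases, 4053 lie in no other Aqp4 transcript, since the annotated short forms end early in the last exon, and reads in those bases count to Aqp4-201 whichever start the RNA had.

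Within the short form the routes named different transcripts. Aqp4-205 held 25.6% and 25.3% of Aqp4 TPM in replicates 1 and 2 from alignments and 0% in both from the FASTQ file. Aqp4-202 held 0% in both libraries from alignments and 29.7% and 37.1% from the FASTQ file. Their upstream exons differ, and reads on those exons or their junctions were not examined here, so which of them was present was not tested. Aqp4-210, which has 341 such bases in its own first exon, was seen by both routes, at 9.80% and 10.6% from alignments and 12.8% and 6.95% from the FASTQ file. From alignments, 6 of the 11 transcripts had 0 counts in both libraries. The antisense gene AC133525.2, which overlaps 7896 bases of Aqp4, had 13 and 12 counts.

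**Figure D4:**
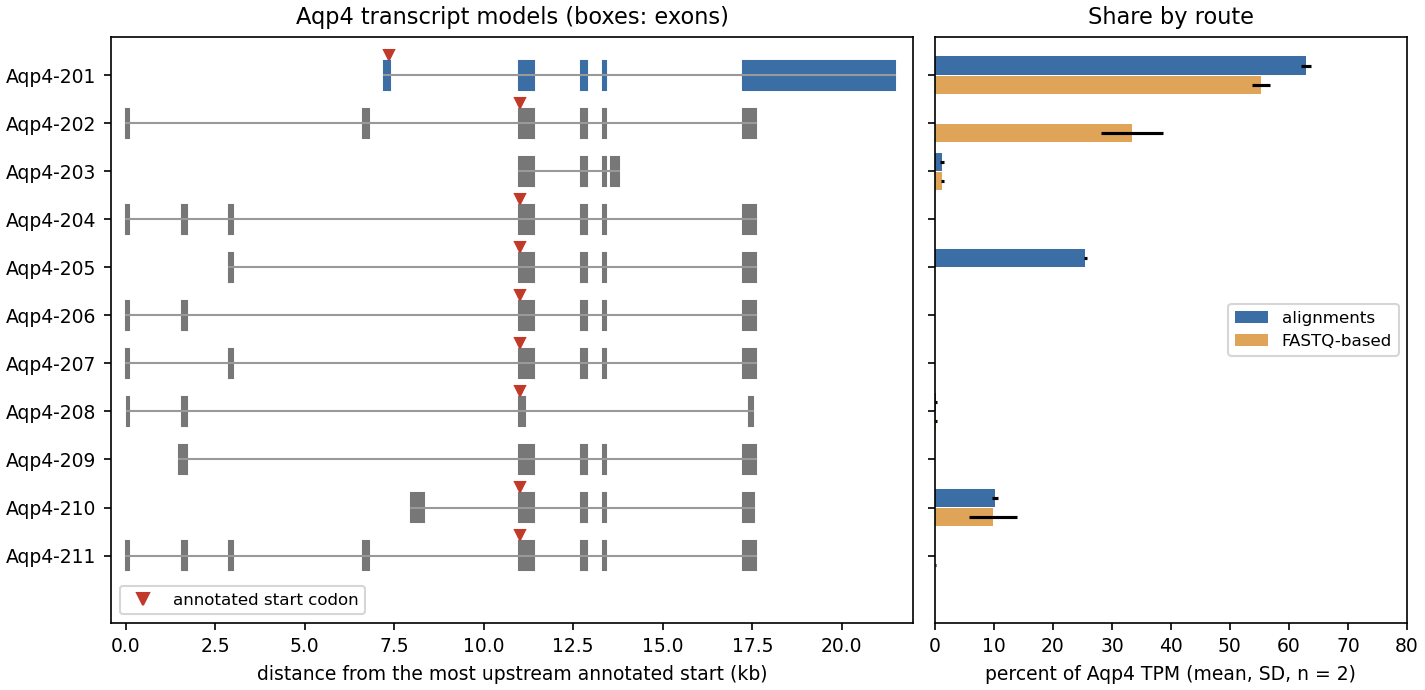
Left, exons of the 11 Aqp4 transcripts against the distance in kb from the most upstream annotated start, with red marks at start codons and Aqp4-201 in blue; right, each transcript's percent of Aqp4 TPM (mean, SD bar, n = 2) from alignments (blue) and from the FASTQ file (yellow). Aqp4-201 leads by both routes, whereas Aqp4-205 has a share from alignments alone and Aqp4-202 from the FASTQ file alone.

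Gja1 showed the same kind of split between routes, without effect on the protein. Gja1-201 held 98.5% and 99.1% of Gja1 TPM in replicates 1 and 2 from alignments, and 34.7% and 36.4% from the FASTQ file. Gja1-206 held 0.26% and 0.21% from alignments and 62.7% and 62.0% from the FASTQ file. Both carry the same coding sequence of 382 codons and share 2882 bases, and they differ in a first exon of 189 bases in Gja1-201 and 300 bases in Gja1-206, whose starts lie 1758 bases apart. The first exon of Gja1-206 lies wholly within the retained-intron transcript Gja1-204, which had 1.09% and 0.67% of Gja1 TPM, and only 2 bases of Gja1-201 and none of Gja1-206 are found in no other Gja1 transcript. The 2 replicates were within 2 percentage points of each other by either route, so the difference between routes was far larger than that between libraries.

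Gjb6, the member that differed most between the libraries, was also split over forms. Its coding transcript Gjb6-201 had 12.6 TPM in replicate 1 and 7.64 TPM in replicate 2, so the difference was present there as well. The retained-intron form Gjb6-204 had 128 counts in replicate 1 and 33.4 in replicate 2, which is 16.2% and 8.13% of Gjb6 TPM. A short non-coding form of 201 bases, Gjb6-203, held 18.2% and 19.3% of Gjb6 TPM on only 8.07 and 4.43 counts. Summed over transcripts with a complete coding sequence, Gjb6 had 12.6 and 7.64 TPM in replicates 1 and 2 and Panx1 had 10.0 and 9.64 TPM. These ranges overlapped, so on that measure the pair could not be ordered.

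The pannexin levels rested in part on short incomplete transcripts. Panx2-201, of 355 bases, held 43.5% and 43.4% of Panx2 TPM in replicates 1 and 2 from alignments on 129 and 120 counts, against 6.81% and 3.02% from the FASTQ file. Panx2-203, the longer of the complete forms with 677 codons, held 55.8% and 55.4% from alignments and 78.7% and 80.9% from the FASTQ file. The antisense gene 1810021B22Rik, which overlaps 2372 bases of Panx2, had 10 and 5 counts in replicates 1 and 2. Panx1-204, of 357 bases, held 34.3% and 20.6% of Panx1 TPM on 59.2 and 26.6 counts from alignments and 0% from the FASTQ file. The FASTQ-based level rested in turn on the retained-intron form Panx1-203, of 575 bases, at 27.8% and 31.1%, against 1.04% and 2.13% from alignments. From alignments the full-length Panx1-202 held 32.6% and 38.8%, and Panx1-201, annotated as a target of nonsense-mediated decay, held 32.1% and 38.4%. The higher Panx1 TPM of replicate 1 thus lay in Panx1-204, while Panx1-202 had 10.0 and 9.64 TPM.

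For the low connexins transcripts mattered less. Gjb2 and Gjd2 have 1 transcript each. Gjc3-201, the coding form, held 92.2% and 79.4% of Gjc3 TPM in replicates 1 and 2, and the rest lay on the retained-intron form Gjc3-202 with 2.12 and 6.94 counts. In coding transcripts alone, Gjc3 had 2.35 and 2.74 TPM. Gjd2 overlaps a gene pair named A530058N18Rik on the opposite strand by 57 and 18 bases, with 0 counts in both libraries for the entry with 57 and 193 and 156 counts for the other.

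**Figure D5:**
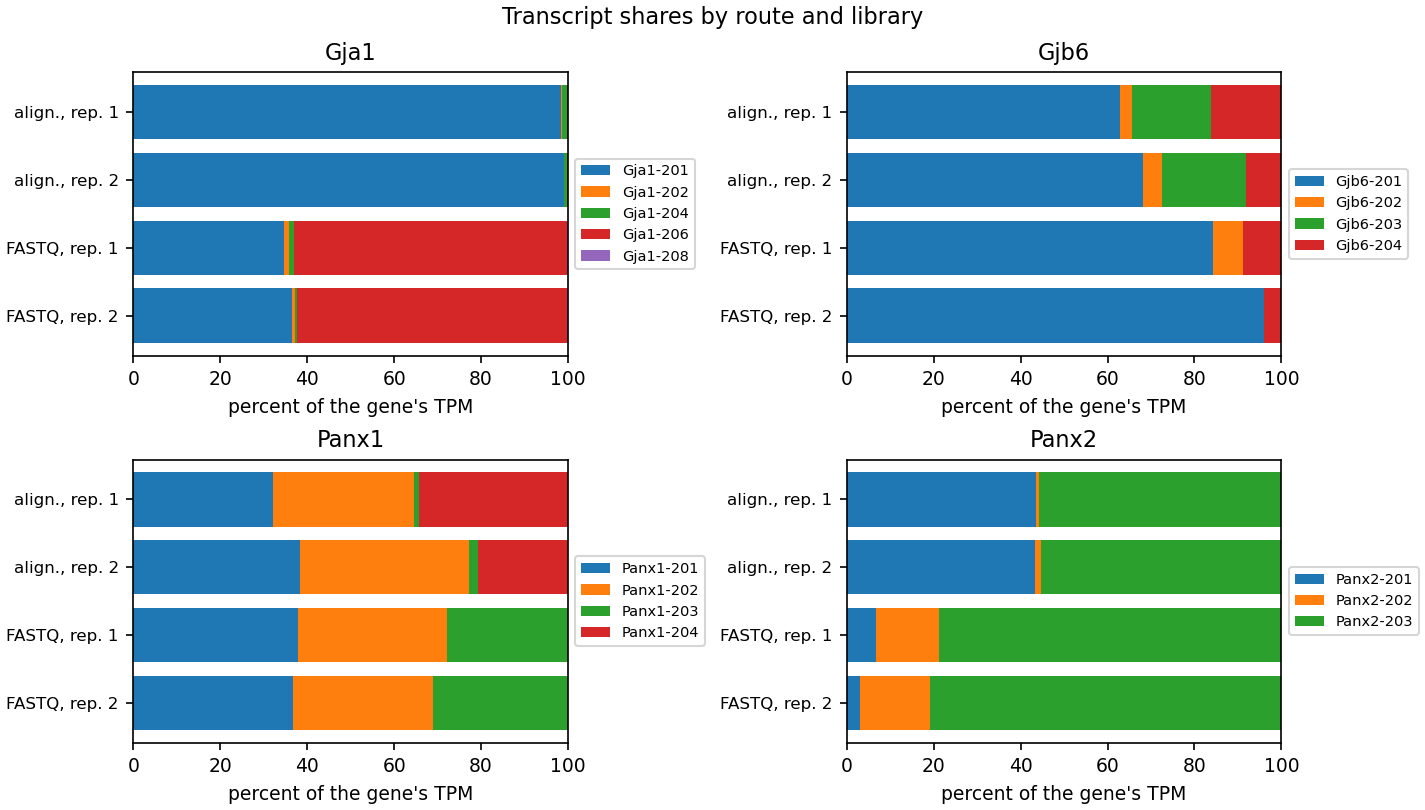
Percent of each gene's TPM on its transcripts for Gja1, Gjb6, Panx1 and Panx2, with a bar for each route and library (alignments above, FASTQ-based below, replicate 1 above replicate 2). Gja1-201 fills 98.5% and 99.1% of the bars from alignments and 34.7% and 36.4% of those from the FASTQ file, while for Panx1-202 the replicates (32.6% and 38.8% from alignments) lie further apart than the means of the routes (35.7% and 33.2%).

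Gene levels by the routes differed by a shift common to most genes. Over 14197 nuclear protein-coding genes, the log2 ratio of TPM from alignments over FASTQ-based TPM had a median of -0.62, and 95% of genes lay between -1.87 and -0.09. Protein-coding genes held 46.2% and 46.1% of TPM from alignments in replicates 1 and 2 and 75.3% and 75.1% from the FASTQ file. Relative to that median the members lay between -0.17 for Gjc3 and 0.73 for Panx2. Panx2 had a log2 ratio of 0.11 ± 0.03 (SD, n = 2), above 98.7% of the protein-coding genes, and was the member outside their range. Gjb6 followed at -0.26 ± 0.09, above 94.9% of them. The routes quantify the same reads, so this is not a comparison between replicates.

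The sequence before the starts of Gjb6 and Gjb2 also differed in base composition. Both windows are from RefSeq (GRCm38.p6, minus strand), 250 bases ending at the base before the annotated start, and they are printed because these genes, the closest pair in coding sequence, behaved differently between the libraries. Capitals mark GGGCGG on either strand, so that CCGCCC is the same motif on the opposite strand. The window of Gjb6 is chr14:57133612-57133861 and that of Gjb2 is chr14:57104703-57104952.
Gjb6 upstream: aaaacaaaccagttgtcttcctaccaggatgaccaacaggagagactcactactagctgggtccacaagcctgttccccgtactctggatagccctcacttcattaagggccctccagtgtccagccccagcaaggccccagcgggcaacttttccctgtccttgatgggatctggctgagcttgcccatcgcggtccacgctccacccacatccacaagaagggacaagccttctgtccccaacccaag
Gjb2 upstream: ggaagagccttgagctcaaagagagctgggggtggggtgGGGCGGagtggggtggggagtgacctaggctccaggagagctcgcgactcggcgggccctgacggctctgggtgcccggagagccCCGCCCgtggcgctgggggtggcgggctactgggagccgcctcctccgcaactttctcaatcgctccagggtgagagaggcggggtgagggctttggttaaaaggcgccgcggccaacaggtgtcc

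With the 50 bases after the start included, the Gjb6 window was 57.3% G or C with 6 CpG, and the Gjb2 window was 70.0% G or C with 27 CpG, against medians of 52.7% and 7 CpG over 32851 windows. GGGCGG stood 211 and 126 bases before the start of Gjb2 and was absent from the Gjb6 window, and 35.7% of all windows held it on at least 1 strand. The Gjd2 window had 75.0% G or C, 41 CpG and GGGCGG 33 bases before the start. TGAGTCA, searched on both strands and held by 5.20% of windows, was found in Gja1 alone among the 6 members with a window, 19 bases before its start. TATAAA and CACGTG, in 13.6% and 7.15% of windows, were in none of the 6. These matches are descriptions of letters and not of binding.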

How the data were processed

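Total RNA-seq with spike-ins was measured in both libraries. Per the labels and deposited descriptions, the files use mm10 and the GENCODE M21 annotation, while aligner and counter were not given in the sources used here. Deposited gene and transcript tables made from alignments hold expected counts, not normalized, and TPM. The authors' other transcript table, made from the FASTQ file, also holds estimated counts and TPM, and was summed per gene here. Whether counting used strand is unknown.

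Left out of library sizes and tests were 97 spike-in rows and 26248 rows with a number for a name (2.81e-05% and 2.00e-05% of counts). Counts were rounded and scaled by TMM (edgeR 4.0.16, R 4.3.3), with DESeq2 1.42.0 median ratios as an alternative. The exact binomial test (two-sided, Benjamini-Hochberg over all genes with a mean count of 100 or more) set replicate 1 over replicate 2. A gene passed at an adjusted p under 0.05, and a further rule asked for 2-fold. A prior count of 0.5 entered log2 ratios of counts, and a pseudocount of 0.1 those of TPM. Exact intervals (95%) cover counting error only, since no molecular identifiers are named. The labels call the samples biological replicates, and part of their spread may still be technical. The test was checked on simulated counts that varied by counting error alone, so the check does not cover other spread between libraries. BLAST 2.17.0, Biopython 1.88, Python 3.11.15, numpy 2.4.6, pandas 2.3.3, scipy 1.17.1 and matplotlib 3.10.9 did the rest.

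The members and lists were chosen with earlier results of these data known. The text names all 8 members and, of each list, some of the 4 genes with the highest mean TPM and those at least 2-fold apart. Fgfr3, Kcnj10, Gpr37l1, P2ry12 and Tjp1 were named after their values were seen where they fall outside that rule. Alternatives were other scalings, filters and pseudocounts, the FASTQ-based table, counts in place of TPM and each library alone. Complete coding sequences were chosen after seeing the data. Parental alleles were not separated, and some of the genes outside the 8 members are not reported here.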

Additional observations from a re-analysis of the deposited data

How the results depend on the processing

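Of 51 values of main results recomputed under an alternative, 45 were counted as kept, 6 moved and none reversed. Kept means the same call, a move smaller than the spread between the libraries, or a similar count of members. For shares and log2 ratios of TPM, each library alone always lies closer to the mean of both than their SD. Those single-library settings were therefore kept by construction and are no check of these values. The 45 include settings in which 6 of 8 members kept their place in the order of levels. These were the FASTQ-based table, replicate 2 alone and complete coding sequences. The log2 ratio of Gja1 over Gjd2, whose spread was small, was 3.83 by the FASTQ-based table, 3.64 with a pseudocount of 1 TPM and 3.88 in counts not divided by length. The Aqp4-201 share was 55.2% by the FASTQ-based table and 88.9% of expected counts. The members outside the central 95% of route ratios numbered 0 among all genes and 1, Panx2, among nuclear protein-coding genes; the cause of these moves was not tested. In single libraries the astrocyte share was 91.5 to 92.9%, the Aqp4-201 share 62.3 to 63.5%, Gja1 over Gjc3 4.98 to 5.57, Gja1 over Gjd2 3.74 to 3.80 and Gjc3 over Gjd2 -1.77 to -1.24, and 6 to 8 of 8 members kept their place in the order of levels, with 0 outside the range of route ratios in each. Under 6 other scalings, filters and count tables, 3 members passed and 0 were at least 2-fold apart each time. Over the same alternatives Gjb6 had a log2 ratio of 0.85 to 0.88 and an adjusted p of 1.92e-19 to 4.36e-18 in the exact binomial test with Benjamini-Hochberg adjustment. Values for Gjb2 and Gjc3 rest on 152 to 222 counts a library, and intervals leave differences of up to 0.36 and 0.54 on the log2 scale within counting error. No paired analysis was possible because there is 1 group.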
